A study of Mus musculus with 27 samples.

Results

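The Dlk1-Dio3 domain is an imprinted region of mouse chromosome 12 in which protein-coding genes and long noncoding RNAs are transcribed from opposite parental chromosomes. The members were the rows of the RNA-Seq table named Dlk1, Rtl1 and Dio3, which are protein-coding genes expressed from the paternal allele, and Meg3, Rian and Mirg, which are noncoding RNAs expressed from the maternal allele. These are 6 of the 24065 genes in the table, and all 6 passed the filter of a mean of at least 10 counts. RNA-Seq was performed on whole E8.5 embryos of the C57BL/6J strain, with 3 WT and 3 Dnmt3b-/- littermates and 1 library for each embryo. The Dnmt3b-/- embryos carry on both chromosomes a catalytically inactive Dnmt3b allele, made by crossing Dnmt3b-2lox mice with an ACTB-Cre deleter line, and came from matings of heterozygous parents. The replicates are therefore separate embryos, and the counts do not separate the parental alleles, so that maternal and paternal here name the known origin of each RNA and not a measured one.

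In this domain a differentially methylated region between Dlk1 and Meg3 acquires its methylation in the paternal germline and controls which parental chromosome makes which RNAs. On the maternal chromosome Meg3, Rian and Mirg are read in one direction and are thought to form a long transcription unit that carries C/D box snoRNAs and a large cluster of miRNAs. DLK1 is a transmembrane protein related to the Notch ligands, RTL1 derives from a retrotransposon and is needed in the placenta, and DIO3 inactivates thyroid hormone. DNMT3B is a de novo DNA methyltransferase.

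In the mm10 assembly (GRCm38) the domain spans 829 kb from the Dlk1 start to the Dio3 end. Dlk1 lies at chr12:109452485-109463336 and Meg3 at chr12:109540996-109571729, with 77.7 kb between them. Rian follows at chr12:109603945-109661716 and Mirg at chr12:109734981-109749458. Dio3 has a single exon at chr12:110279230-110281097, 530 kb beyond the Mirg end. These genes are on the plus strand, and Rtl1 is on the minus strand at chr12:109564900-109604418.

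The promoter of Meg3 is shown because this gene stands at the start of the maternal RNAs and passed the test. The sequence is on the plus strand, from RefSeq on GRCm38.p6, with every CpG dinucleotide, the site of DNA methylation, in capitals. The window is chr12:109540746-109541045, which holds 250 bases before and 50 bases after the gene start.
Meg3: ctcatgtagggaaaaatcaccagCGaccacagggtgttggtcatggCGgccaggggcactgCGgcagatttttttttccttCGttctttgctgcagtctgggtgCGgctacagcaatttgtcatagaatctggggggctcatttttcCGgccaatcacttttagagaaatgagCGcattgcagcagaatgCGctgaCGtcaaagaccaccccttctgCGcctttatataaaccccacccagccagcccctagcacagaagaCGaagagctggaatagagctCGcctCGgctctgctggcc
The Meg3 window holds 13 CpG dinucleotides, beside a median of 7 over 32841 RefSeq promoter windows of the same length. The Dio3 window holds 25, the Mirg window 10 and the Rian window 0. A second Meg3 start has a window with 1 CpG. Motifs chosen after the sequence was seen were searched on both strands. TGACGTCA, the cAMP response element, was found 57 bases before the Meg3 start and in 1.79% of all windows. TATAAA was found on both strands within a single stretch that begins 29 bases before the Meg3 start, and in 13.6% of all windows. CCAAT was found 100 bases before the Meg3 start and in 37.4% of all windows. In the Dio3 window TATAAA begins 31 bases before the start and CCAAT was found at 2 positions, and the Mirg window holds CCAAT at 1 position. None of these motifs was found in the Rian window or in that of the second Meg3 start. The methylation of these windows was not analysed here.

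Of the 61 miRNA genes of the domain in RefSeq, 6 are read from the strand opposite to an exon of Rtl1, and miRNAs of this group are known to be fully complementary to the Rtl1 mRNA and to cleave it. An arm of 5 of them is shown because these RNAs join the maternal and the paternal transcripts of the domain, with the seed, bases 2 to 8, in capitals.
miR-431-5p: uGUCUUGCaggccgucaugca
miR-433-3p: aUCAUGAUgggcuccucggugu
miR-127-3p: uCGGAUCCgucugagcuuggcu
miR-434-3p: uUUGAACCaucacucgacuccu
miR-136-5p: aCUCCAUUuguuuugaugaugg
The seeds of these RNAs differ from each other and are shared with no other mature miRNA of the domain. Over the whole domain 113 mature miRNAs carry 104 different seeds, and 9 seeds are each shared by 2 of them. Mature miRNAs were not measured, since the libraries hold fragments of long RNAs.

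The raw counts on genes summed to between 41489332 and 58470286 for each embryo, so that 3 counts, taken as the limit of detection, correspond to 2.38 to 3.5 normalized counts. The counts were normalized with TMM factors and are given as normalized counts; levels of different genes were compared only as FPKM, fragments per kilobase of exon scaled to the depth of the library. Dnmt3b itself had 7287, 14003 and 6301 normalized counts in WT embryos and 4076, 4557 and 4756 in Dnmt3b-/- embryos, with no overlap between the genotypes (log2 fold change -1.04, adjusted p = 0.0169). The deleted exons cannot be told apart from the rest of the gene in a gene-level count. Across the 15114 genes tested, 320 were higher and 571 lower in Dnmt3b-/- embryos when called by an adjusted p below 0.05 together with more than a 2-fold change, and the median log2 fold change was -0.029. This split was 246 to 710 with scaling to total counts and 312 to 134 with a correction for GC content and length.

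Markers of other tissues varied between embryos of the same genotype. The summed level of 9 yolk sac endoderm markers was 401, 1220 and 186 FPKM in WT embryos and 414, 246 and 108 FPKM in Dnmt3b-/- embryos, so that WT embryo 2 stood apart. For 7 primitive erythroid markers the summed level ranged from 399 to 2250 FPKM in WT and from 504 to 1440 FPKM in Dnmt3b-/- embryos. The sum over 6 endothelial markers was 48.2 to 63.7 FPKM in WT and 45.5 to 67.4 FPKM in Dnmt3b-/- embryos. For 10 markers of the embryo proper it was 152 to 167 FPKM in WT and 161 to 212 FPKM in Dnmt3b-/- embryos. Trophoblast markers summed to at most 14.2 FPKM, with Prl3d1, Prl2c2 and Tpbpa at 0 in every embryo. Decidua markers summed to at most 3.78 FPKM, with Prl8a2 and Prl3c1 at 0 in every embryo. The part of these differences between embryos in the results was not tested. In whole embryos fewer cells of a type and less RNA per cell cannot be told apart.

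Opposite shifts were seen in Dnmt3b-/- embryos: Meg3 and Mirg rose, while Dlk1 and Rtl1 fell. Of the 6 members, 2 were higher and 2 lower at an adjusted p below 0.05, beside 17.6% of all tested genes that were higher and 18.1% that were lower. With a fold change above 2 as well, Mirg alone was called higher, beside 2.12% of tested genes, and Rtl1 alone was called lower, beside 3.78%; Dlk1 lay at the fold threshold and was called lower as well under some of the alternative settings. The genotypes did not overlap for 4 members, beside 51.8% of all tested genes. Rian and Dio3 did not pass the test.

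**Figure D1:**
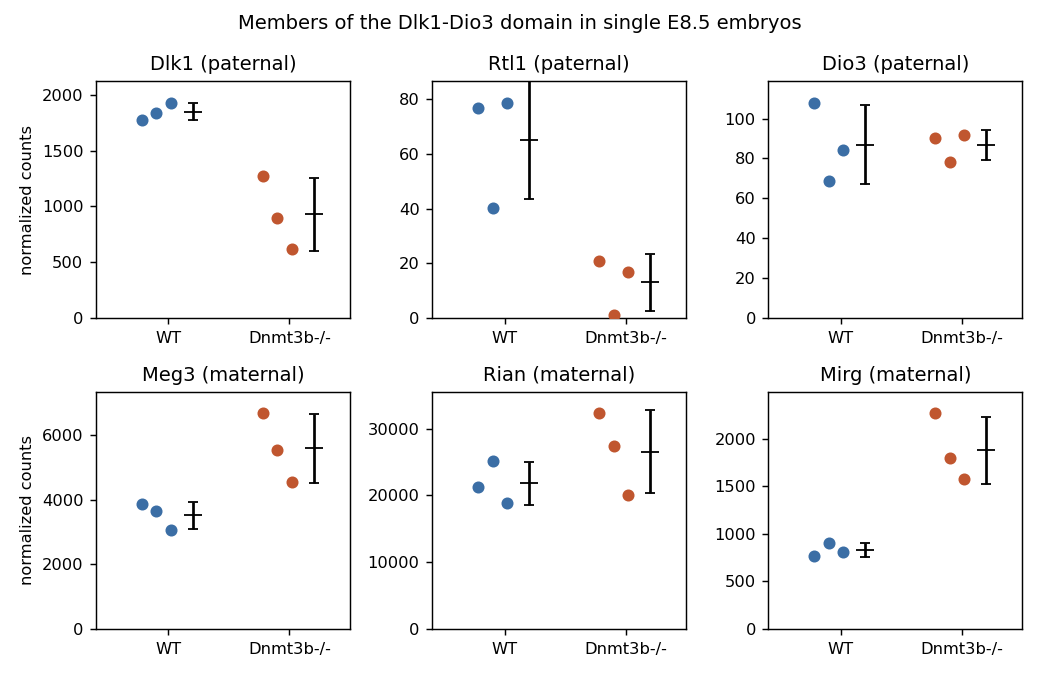
Normalized counts of the 6 members, with 1 point for each embryo and a bar for the mean and SD (n = 3 embryos for each genotype) on axes that start at 0. For Dlk1 and Rtl1 all Dnmt3b-/- embryos lie below all WT embryos, for Meg3 and Mirg all lie above them, and for Rian and Dio3 the genotypes overlap.

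Dlk1 had 1776, 1838 and 1929 normalized counts in WT embryos and 1274, 893 and 621 in Dnmt3b-/- embryos. The WT values lay close together, the Dnmt3b-/- values were spread more widely, and every Dnmt3b-/- embryo was below every WT embryo. The mean fell from 1848 ± 77.2 to 929 ± 328 normalized counts (SD, n = 3 embryos each). The log2 fold change was -0.99 with a standard error of 0.22 (adjusted p = 0.0103), a fold of 1.99 that lies just short of the fold threshold. In 6 of 14 alternatives Dlk1 passed both thresholds, among them scaling to total counts (log2 fold change -1.06) and leaving out Dnmt3b-/- embryo 1 (-1.27). The change was smallest with the correction for GC content and length (-0.74, adjusted p = 0.0244) and without Dnmt3b-/- embryo 3 (-0.76, adjusted p = 0.0161).

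Rtl1 had 76.9, 40.2 and 78.8 normalized counts in WT embryos and 21.0, 1.17 and 17.0 in Dnmt3b-/- embryos. It was the member with the fewest reads, with 35 to 97 raw counts in WT and 1 to 21 in Dnmt3b-/- embryos, and a value of 1 count is under the limit of 3. Every Dnmt3b-/- embryo was below every WT embryo, and WT embryo 2 was the lowest of its genotype. The log2 fold change was -2.30 with a standard error of 0.72 (adjusted p = 0.0374). The call was lost without WT embryo 1 (adjusted p = 0.109), WT embryo 3 (adjusted p = 0.0945) or Dnmt3b-/- embryo 3 (adjusted p = 0.0700), and with a correction for GC content and length (adjusted p = 0.0772).

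Dio3 had 108, 68.9 and 84.1 normalized counts in WT embryos and 90.2, 78.2 and 91.8 in Dnmt3b-/- embryos. All Dnmt3b-/- values fell inside the range of the WT values. The log2 fold change was -0.01 with a standard error of 0.28 (adjusted p = 0.989), and its sign changed with the scaling, being 0.01 with median-of-ratios scaling and 0.46 with the correction for GC content and length. Dio3os, a noncoding RNA read from the strand opposite to Dio3, had 8.72, 16.1 and 14.2 normalized counts in WT and 17.0, 0 and 6.80 in Dnmt3b-/- embryos, and did not pass the test (log2 fold change -0.66, adjusted p = 0.616).

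Among the maternal RNAs, Meg3, a long noncoding RNA, had 3862, 3646 and 3050 normalized counts in WT embryos and 6673, 5530 and 4552 in Dnmt3b-/- embryos. The lowest Dnmt3b-/- embryo was above the highest WT embryo. The mean rose from 3519 ± 420 to 5585 ± 1062 normalized counts (SD, n = 3 embryos each), with a log2 fold change of 0.67 and a standard error of 0.14 (adjusted p = 0.00832).

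Mirg, which hosts miRNAs at the distal end of the cluster, had 771, 907 and 810 normalized counts in WT embryos and 2267, 1794 and 1575 in Dnmt3b-/- embryos. The genotypes were well separated, and the rise of 2.27-fold was the largest among the 6 members. The log2 fold change was 1.18 with a standard error of 0.15 (adjusted p = 0.00105).

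Rian, which hosts C/D box snoRNAs, was by far the most abundant member. It had 21306, 25207 and 18849 normalized counts in WT embryos and 32293, 27427 and 19990 in Dnmt3b-/- embryos. The genotypes overlapped, since Dnmt3b-/- embryo 3 lay below WT embryos 1 and 2. The log2 fold change was 0.29 with a standard error of 0.17 (adjusted p = 0.232). It passed without Dnmt3b-/- embryo 3 (log2 fold change 0.47, adjusted p = 0.0474) and was 0.03 with the correction for GC content and length (adjusted p = 0.919).

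In Dnmt3b-/- embryos the same embryo, number 1, was highest for Dlk1, Rtl1, Meg3, Rian and Mirg, and embryo 3 was lowest for Dlk1, Meg3, Rian and Mirg. The summed levels of the yolk sac endoderm markers (414, 246 and 108 FPKM in embryos 1, 2 and 3), the primitive erythroid markers (1440, 1100 and 504 FPKM) and the endothelial markers (67.4, 57.4 and 45.5 FPKM) were also highest in embryo 1 and lowest in embryo 3 of this genotype. The sum of the embryo proper markers was lowest in embryo 1 and highest in embryo 3 (161, 177 and 212 FPKM). The part of these cells in the members' values was not tested. WT embryo 2 had the highest sum of the yolk sac endoderm markers and the lowest sum of the primitive erythroid markers. Without this embryo, Dlk1, Rtl1, Meg3 and Mirg still passed the test in the same direction, and Rian and Dio3 still did not.

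Per exon length, the order of the members in WT embryos was Rian at 126 ± 18.6 FPKM, Mirg at 13.2 ± 1.12, Dlk1 at 7.97 ± 0.333, Meg3 at 5.64 ± 0.673, Dio3 at 0.966 ± 0.218 and Rtl1 at 0.213 ± 0.071 (SD, n = 3 embryos). No neighbours in this order overlapped between embryos. In Dnmt3b-/- embryos Rian was at 154 ± 35.9 FPKM, Mirg at 30.0 ± 5.64, Meg3 at 8.95 ± 1.70, Dlk1 at 4.01 ± 1.41, Dio3 at 0.964 ± 0.0826 and Rtl1 at 0.0427 ± 0.0343, again without overlap between neighbours. Meg3 and Dlk1 thus exchanged places in the order. FPKM values depend on the exon length, which for Meg3 is the union of 12957 bases over its curated transcripts, and Rian made up 86.0% to 87.8% of the maternal sum in WT and 78.1% to 80.9% in Dnmt3b-/- embryos.

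The balance of maternal over paternal RNA was then computed within each embryo, as the summed FPKM of Meg3, Rian and Mirg over that of Dlk1, Rtl1 and Dio3. The ratio was 15.6, 18.8 and 13.3 in WT embryos and 35.6, 41.6 and 39.5 in Dnmt3b-/- embryos. The genotypes did not overlap, which also held for 51.8% of all tested genes taken singly. The mean of the log2 ratio was 3.98 ± 0.25 in WT and 5.28 ± 0.11 in Dnmt3b-/- embryos (SD, n = 3), a difference of 1.30. No test was made of this ratio, since its members were chosen with earlier results known. The maternal sum was 145 ± 19.9 FPKM in WT and 193 ± 43.0 FPKM in Dnmt3b-/- embryos, and the paternal sum 9.15 ± 0.345 and 5.02 ± 1.43 FPKM. The maternal sums overlapped, with 166 FPKM in WT embryo 2 and 148 FPKM in Dnmt3b-/- embryo 3, and the paternal sums did not. Rian made up most of the maternal and Dlk1 most of the paternal sum. The log2 ratio of Rian over Dlk1 alone differed by 1.32.

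The same ratio was computed between single members. Meg3 over Dlk1 was 0.808, 0.736 and 0.587 in WT embryos and 1.95, 2.30 and 2.72 in Dnmt3b-/- embryos. Mirg over Dlk1 was 1.61, 1.83 and 1.55 in WT embryos and 6.59, 7.44 and 9.39 in Dnmt3b-/- embryos. The maternal RNAs also differed among themselves. Mirg over Meg3 was 1.99, 2.48 and 2.65 in WT embryos and 3.39, 3.23 and 3.45 in Dnmt3b-/- embryos, and Rian over Meg3 was 19.9, 25.0 and 22.3 in WT embryos and 17.5, 17.9 and 15.9 in Dnmt3b-/- embryos. Neither ratio overlapped between the genotypes, beside 51.8% of all tested genes that did not overlap when taken singly. Relative to Meg3, Mirg was higher and Rian lower in every Dnmt3b-/- embryo than in any WT embryo. No test was made of these ratios.

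**Figure D2:**
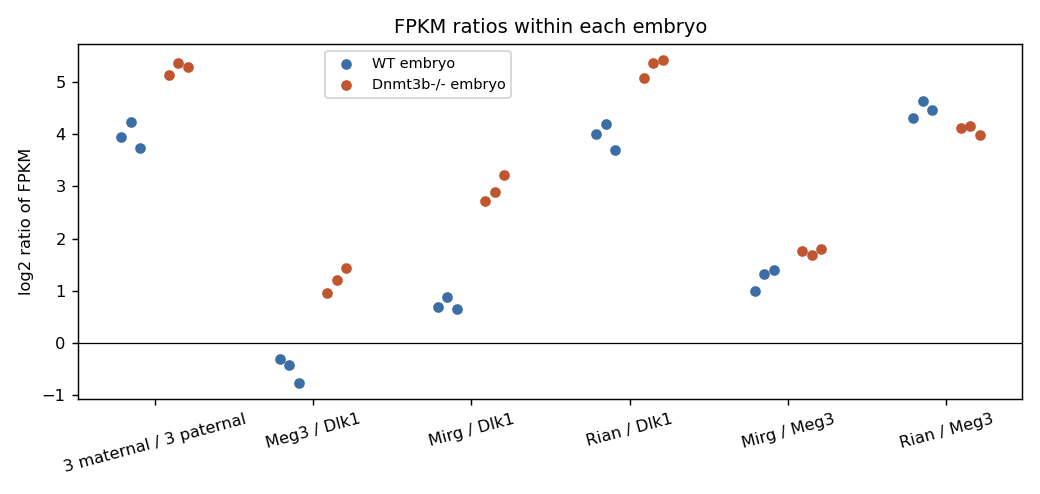
Log2 ratios of FPKM within each embryo, for the maternal over the paternal sum and for pairs of members, with 1 point for each embryo. The maternal over paternal ratio is 3.74 to 4.24 in WT and 5.15 to 5.38 in Dnmt3b-/- embryos, and Meg3 over Dlk1 is below 0 in the WT and above 0 in the Dnmt3b-/- embryos.

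The table holds 77 rows between the Dlk1 start and the Dio3 end, of which 71 are not members. Among these, 61 are miRNA hairpins and 7 are snoRNAs. The snoRNA rows lie downstream of the Rian start and guide modification of other RNAs or have no known target. All 7 passed the filter, 3 were higher at an adjusted p below 0.05, beside 17.6% of all tested genes, none was lower, beside 18.1%, and their median log2 fold change was 0.68 beside -0.029 over all tested genes. The most abundant, AF357359, had 1384, 1668 and 1078 normalized counts in WT embryos and 3162, 3288 and 1998 in Dnmt3b-/- embryos. Every Dnmt3b-/- embryo was above every WT embryo (log2 fold change 1.03, adjusted p = 0.00717).

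AF357355 rose with a log2 fold change of 1.29 (adjusted p = 0.0252) and AF357425 with 1.11 (adjusted p = 0.0448). DQ267102 had a log2 fold change of 0.68 (adjusted p = 0.0915), DQ267100 of 0.58 (adjusted p = 0.225), AF357426 of 0.45 (adjusted p = 0.247) and DQ267101 of -0.29 (adjusted p = 0.759), and these rows did not pass. The 7 rows summed to 1788, 2190 and 1447 normalized counts in WT embryos and 3967, 4052 and 2545 in Dnmt3b-/- embryos. Most of this sum came from AF357359, whose row is 30 bases long. These counts are fragments over each row and do not tell a mature snoRNA from a longer RNA. The number of rows that were higher lay between 1 and 4 when single embryos were left out: it was 1, AF357359, without WT embryo 1, WT embryo 3, Dnmt3b-/- embryo 1 or Dnmt3b-/- embryo 2. AF357425 passed in 6 of 14 alternatives and was lost also without the filter on low counts, with scaling to total counts (adjusted p = 0.0558) and with the replicate block. AF357355 passed in 10 of 14. AF357359 passed in all 14 alternatives, with an adjusted p of at most 0.0367.

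The miRNA hairpin rows were sparse. Of 61 rows, 13 were at 0 in every embryo, 8 of which lie wholly inside an exon of another row, and 11 rows passed the filter. None of the 11 passed the test in either direction, beside 17.6% of all tested genes that were higher and 18.1% that were lower. These rows averaged only 13.7 to 40.2 counts. Of the 11, 5 had a positive and 6 a negative log2 fold change, between -1.82 for Mir667 and 1.47 for Mir665. The hairpin rows summed to 349, 467 and 382 normalized counts in WT embryos and 471, 314 and 247 in Dnmt3b-/- embryos, which overlapped. Among those opposite to Rtl1, Mir434 had a mean of 9.0 counts, Mir432 4.17, Mir127 2.83 and Mir431 1.83, and Mir433 and Mir136 were at 0, so that none passed the filter. These counts are fragments over the hairpin and not mature miRNA.

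The other RNA read opposite to Rtl1 is 6430411K18Rik, a noncoding transcript at chr12:109591537-109592851 that lies wholly within an Rtl1 exon on the plus strand. It had 138, 241 and 165 normalized counts in WT embryos and 374, 267 and 155 in Dnmt3b-/- embryos. The genotypes overlapped and the log2 fold change of 0.55 did not pass the test (adjusted p = 0.244). The strand setting of the counting is not stated, so that reads from Rtl1 and its antisense RNAs may not be fully separated.

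**Figure D3:**
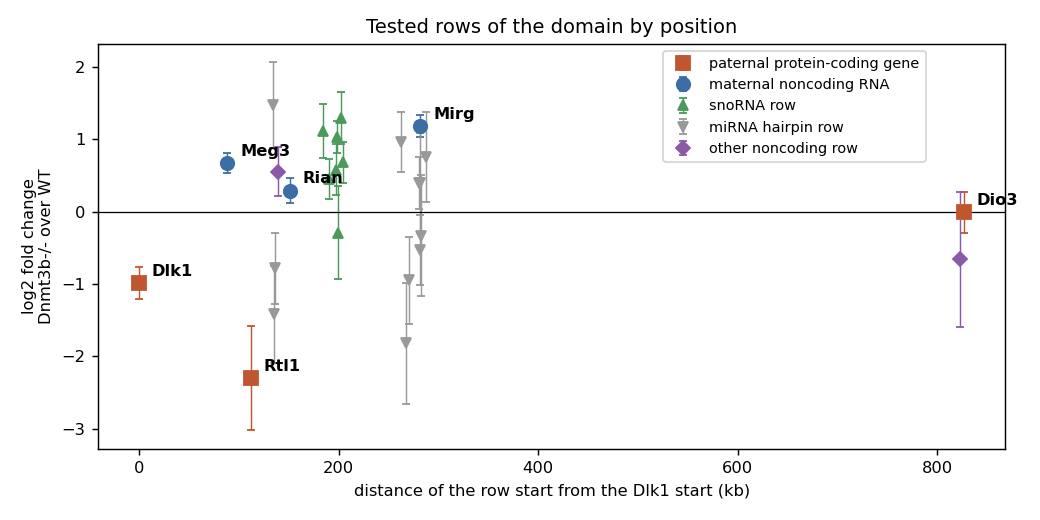
Log2 fold change between the genotypes (positive where Dnmt3b-/- embryos are higher), with its standard error, for the tested rows of the domain by distance of the row start from the Dlk1 start in kb. Meg3, Mirg and 6 of the 7 snoRNA rows lie above 0, Dlk1 and Rtl1 lie below 0, and Dio3, at 827 kb, lies at -0.01.

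Outside the domain, the 3 nearest tested genes before Dlk1 were Begain, Wdr25 and Wars, with log2 fold changes of -0.28 (adjusted p = 0.717), -0.31 (adjusted p = 0.331) and -0.45 (adjusted p = 0.00199). The 3 nearest after Dio3 were Ppp2r5c, B930059L03Rik and Dync1h1, with log2 fold changes of 0.09 (adjusted p = 0.323), -0.69 (adjusted p = 0.505) and -1.10 (adjusted p = 0.00180). Wars, a tryptophanyl-tRNA synthetase, and Dync1h1, the heavy chain of cytoplasmic dynein, thus fell. Of 15 tested genes on either side of the domain, 1 was higher at an adjusted p below 0.05, beside 17.6% of all tested genes. In this set 3 were lower, beside 18.1%, and the median log2 fold change was -0.21. With the correction for GC content and length the median was 0.05 and Wars did not pass (adjusted p = 0.0784).

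In a list from the Notch pathway, whose ligands DLK1 resembles, 4 of 14 tested genes were higher, beside 17.6% of all tested genes. The list holds ligands, receptors, proteases and nuclear factors. In this list 5 were lower, beside 18.1%, and the median log2 fold change was -0.32. All of the lower genes were receptors or ligands, and among the higher genes only Jag1 was. The receptors Notch3 (log2 fold change -0.84, adjusted p = 0.0011) and Notch2 (-0.90, adjusted p = 0.00717) fell, while the protease Adam17 (0.27, adjusted p = 0.00966) and the ligand Jag1 (0.26, adjusted p = 0.0152) rose. With the correction for GC content and length 2 of the 14 were higher and 1 lower, the median was -0.03, and Notch3 (adjusted p = 0.181) and Adam17 (adjusted p = 0.438) did not pass.

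Among genes that derive like Rtl1 from retrotransposons, 2 of 10 tested were higher, beside 17.6% of all tested genes. Rtl1 included, 2 were lower, beside 18.1%. Peg10, another imprinted gene of this origin, rose (log2 fold change 0.52, adjusted p = 0.00767), as did Ldoc1 (0.82, adjusted p = 0.0267), and Cxx1b fell (-0.60, adjusted p = 0.0350), whose reads may be shared with its close copies Cxx1a and Cxx1c. Cxx1b did not pass with the correction for GC content and length (-0.07, adjusted p = 0.770) or without WT embryo 2 (adjusted p = 0.0568).

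Of 8 tested genes of thyroid hormone metabolism, the pathway of Dio3, none was higher, beside 17.6% of all tested genes. Only 1 was lower, beside 18.1%, the amino acid and thyroid hormone transporter Slc7a5 (log2 fold change -0.25, adjusted p = 0.0357). Slc7a5 had the opposite sign with the correction for GC content and length (0.17, adjusted p = 0.238), where the median of the list moved from -0.32 to 0.17. Dio2, the deiodinase that activates the hormone, had 10.4 ± 4.84 normalized counts in WT and 30.8 ± 13.8 in Dnmt3b-/- embryos (SD, n = 3 embryos each) and did not pass (adjusted p = 0.0623). Of 17 tested factors known to set or keep imprints or to act on miRNAs and this domain, 7 were higher, beside 17.6% of all tested genes. In this list 2 were lower, beside 18.1%, and the median log2 fold change was 0.15. Uhrf1, a cofactor of DNMT1, rose (log2 fold change 0.54, adjusted p = 0.00104), as did the miRNA processing genes Drosha (0.49, adjusted p = 0.00438) and Dgcr8 (0.34, adjusted p = 0.00501), and Trim28, a corepressor that protects imprints, fell (-0.39, adjusted p = 0.00334). With the correction for GC content and length 5 were higher and none lower, and the value of Trim28 was 0.21 (adjusted p = 0.0620).

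Of 7 tested RNAs of other imprinted domains, 4 were higher at an adjusted p below 0.05, beside 17.6% of all tested genes. None was lower, beside 18.1%, and the median log2 fold change was 0.42. H19, a maternally expressed noncoding RNA, rose from 170339 ± 7782 to 247807 ± 27454 normalized counts (SD, n = 3 embryos each; log2 fold change 0.54, adjusted p = 0.00269). Kcnq1ot1 (0.79, adjusted p = 0.00288) and Airn (0.42, adjusted p = 0.0472), which are paternally expressed noncoding RNAs, and the paternally expressed coding gene Mcts2 (0.49, adjusted p = 0.0153) rose as well. With the correction for GC content and length 2 of the 7 were higher, and Airn (adjusted p = 0.223) and Mcts2 (adjusted p = 0.0779) did not pass.

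The genes whose profile over the 6 embryos was most like that of each member, by Pearson's r of log2(normalized count + 1) among 15113 other tested genes, were given as a description, since the embryos differ in genotype and with 6 points many genes have a high r. For Dlk1 they were Cxx1b (r = 0.9984), Pisd-ps1 (0.9981) and Supv3l1 (0.998). For Mirg they were Slc1a2 (r = 0.9986), Gm14005 (0.9914) and Mitd1 (0.9903). For Meg3 they were Sh3bp5 (r = 0.9869), Gm15645 (0.9799) and Mphosph9 (0.9761). For Rian they were Sft2d3 (r = 0.9887), Hoxa10 (0.973) and Slc4a5 (0.9693). For Rtl1 they were Ppm1j (r = 0.9956), Phf1 (0.9946) and Atcay (0.9885), and for Dio3 Abca13 (0.9863), Ethe1 (0.9805) and Adamts19 (0.9722).

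Among the members, Mirg ranked 43 in likeness to Meg3 (r = 0.94) and Rian ranked 621 (r = 0.82). Rtl1 ranked 4465 in likeness to Dlk1 (r = 0.70). Dlk1 and Rian had r = -0.08, and Dlk1 and Mirg r = -0.71.

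**Figure D4:**
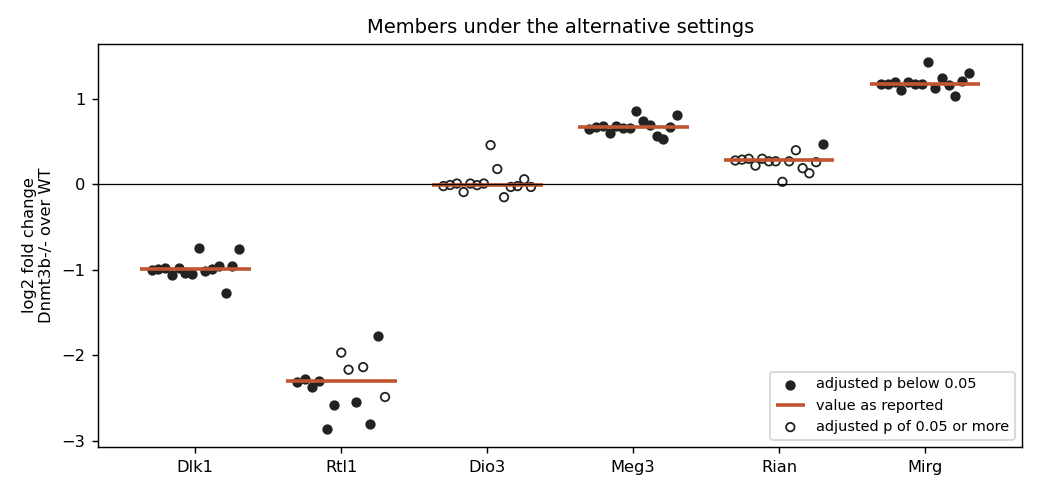
Log2 fold change of each member under the alternative settings of the analysis (points; filled where the adjusted p is below 0.05) and as reported (line). Dlk1, Meg3 and Mirg pass in all 14 alternatives, Rtl1 in 9 of 13, Rian in 1 of 14 and Dio3 in 0 of 14.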

How the data were processed

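RNA-Seq was performed on 3 WT and 3 Dnmt3b-/- embryos at E8.5, with stranded libraries of total RNA after removal of ribosomal RNA. The authors aligned the reads to mm10 with TopHat2 2.0.12 and deposited raw counts in RefSeq exons from HTSeq-count 0.6.0. The authors also deposited a normalized signal, the count divided by a size factor of DESeq2 1.4.5, which was used only to check that 1 factor applies to each column. The authors' deposited log2 fold change and p-value of their own comparison were not used. The RefSeq release and the strand setting are not given in the sources used here. The 21 methylation libraries were not analysed here, and the promoter sequence of Dlk1 is not reported here.

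Genotypes were compared in edgeR 4.0.16 (R 4.3.3) by a quasi-likelihood test after TMM scaling. The test covered the 15114 genes whose counts averaged 10 or more, with Benjamini-Hochberg adjustment over all of them. The standard error is the size of the log2 fold change divided by the square root of F. Total counts ranged from 41489332 to 58470286, and the limit of 3 counts covers counting error only. FPKM values used the exon union of curated transcripts in the RefSeq annotation of GRCm38.p6, which matched 99.2% of the rows. On simulated data drawn for this comparison, with 200 changed genes, the fit was tested for recovery of the changes. The changed genes averaged more than 50 normalized counts, and their changes were larger than that of any member but Rtl1. The simulation thus does not cover small changes or genes with as few counts as Rtl1. Alternatives were other filters and scalings, DESeq2 1.42.0, limma 3.58.1 with voom weights, a replicate block, a correction for GC content and length by splines with 5 degrees of freedom, and each embryo left out. Exon lengths from all RefSeq transcripts were added after seeing the data. Tables and figures were made with Python, pandas, numpy and matplotlib.

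The members and lists were chosen with earlier results of these data known. The genes named are the members, Dnmt3b, rows of the domain that averaged 10 or more counts, the 3 nearest tested genes on each side, up to 4 genes of each list with the lowest adjusted p, and the 3 genes most like each member. The miRNA rows opposite to Rtl1 that did not reach 10 counts were added after the values were seen.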

Additional observations from a re-analysis of the deposited data

How the results depend on the processing

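Dlk1, Meg3 and Mirg kept their direction and an adjusted p below 0.05 in all 14 alternatives. Their log2 fold changes ranged from -1.27 to -0.76, from 0.53 to 0.81 and from 1.04 to 1.31 when single embryos were left out. Rtl1 kept its direction in 13 alternatives but was not tested at a mean of at least 50 counts. It lost its call with the correction for GC content and length (log2 fold change -1.97, adjusted p = 0.0772) and ranged from -2.81 to -1.77 when single embryos were left out, with an adjusted p of up to 0.109. Rian ranged from 0.13 to 0.47 when single embryos were left out. Dio3 did not pass in any alternative and changed sign, with 0.01 under median-of-ratios scaling, DESeq2 and the replicate block, 0.46 with the correction for GC content and length, and -0.15 to 0.18 when single embryos were left out. The cause of these changes was not tested.

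The difference of the log2 maternal over paternal ratio was 1.30. It was 1.89 as the mean of the log2 values of the 3 genes on each side, where Rtl1 weighs as much as Dlk1, and 1.71 for Meg3 against Dlk1 alone. It was 1.37 for normalized counts, 1.28 with exon lengths of all RefSeq transcripts, and 1.18 to 1.43 when single embryos were left out. The ratio was not computed with the correction for GC content and length. With that correction the log2 fold change of Rian was 0.03 in place of 0.29. Dlk1 was at -0.74 in place of -0.99, Dio3 at 0.46 in place of -0.01 and Rtl1 at -1.97 in place of -2.30. Meg3 was at 0.86 in place of 0.67 and Mirg at 1.43 in place of 1.18.

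Over all genes, an adjusted p below 0.05 alone gave 2654 higher and 2741 lower genes, and the correction for GC content and length gave 312 higher and 134 lower in place of 320 and 571. Scaling to total counts gave 246 higher and 710 lower with a median log2 fold change of -0.106. Counts ranged from 242 to 381 higher and from 391 to 774 lower when single embryos were left out. With the replicate block 265 genes were higher and 516 lower. Embryos with the same number had correlations of -0.0491, -0.147 and -0.013 of their deviations from the genotype means. With 3 embryos for each genotype these values cannot tell whether the numbers pair the embryos. Rtl1 and the miRNA hairpin rows have few counts, and their values are the least precise; the part of depth was not tested.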
